A study of Homo sapiens with 4 samples.

Results

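The heat shock proteins and their DNAJ co-chaperones were examined in the RNA of the lung-metastatic subline MDA-MB-231-LM2 (LM2) and of the breast cancer cell line MDA-MB-231 it derives from. The members are the protein-coding genes whose RefSeq or Ensembl symbol begins HSPA, HSPB, HSPD1, HSPE1, HSPH1, HSP90A, HSP90B, DNAJA, DNAJB or DNAJC, without pseudogenes. They number 75 of the 19068 protein-coding genes listed, 30 with HSP symbols and 45 with DNAJ symbols, and 114 of 65423 listed transcripts. For each gene the transcript with the highest mean of the 2 counts was used. Of the 75 members, 61 averaged at least 50 counts over the columns, as did 12530 protein-coding genes in all. HSPB11 is a member by its Ensembl symbol (RefSeq calls it IFT25), and 3 members are readthrough genes that join a member to the next gene.

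LM2 is a subline selected for growth in the lung, and the labels give MDA-MB-231 as its parental line. LM2 cells were grown in DMEM with serum under CO2 in air, and MDA-MB-231 cells in Leibovitz L-15 with serum under air alone, so the line, the medium and the gas cannot be told apart. The labels list 2 samples per cell line, but the deposited table has a single column for each. A column may hold 1 library or the 2 combined (not given in the sources used here). No replicate check of any difference could be made, and no p-value is given.

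Counts summed to 128985870 in LM2 and 130689252 in MDA-MB-231. Each ratio is the LM2 count over the MDA-MB-231 count, divided by the ratio of these totals, and log2 ratios had 0.5 counts added to each count. Intervals are exact (Clopper-Pearson) at 95% and cover counting error only. RPKM is the count scaled by the listed transcript length and the column total, and levels of different genes were compared only in RPKM. The number of cells that carry an RNA and its amount per cell cannot be told apart in these data. The cell line was checked by its markers. The keratins were present but did not move together, with 3902 counts of KRT7 in LM2 and 12456 in MDA-MB-231, 26468 and 35443 of KRT8, and 25297 and 21530 of KRT18. VIM had 262027 counts in LM2 and 153536 in MDA-MB-231, CD44 had 14048 and 17246, and the hormone receptors ESR1 and PGR had 2 to 8 counts in either column. CD3E and CDH5 were at 0 in both columns, and PTPRC had 7 counts in LM2 and 8 in MDA-MB-231. The endothelial marker PECAM1 had 343 counts in LM2 and 48 in MDA-MB-231, and its part in the results was not tested.

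Chaperones of the HSP70 family bind and release unfolded stretches of protein in a cycle driven by ATP. DNAJ proteins, also called J proteins, bring clients to HSP70 and start ATP hydrolysis, and exchange factors such as the HSP110 proteins reset the cycle. HSP90 takes over clients that are nearly folded, HSP60 with its lid HSP10 folds proteins inside mitochondria, and small heat shock proteins hold unfolded proteins until HSP70 can act. The endoplasmic reticulum and the mitochondria have members of their own. When unfolded proteins build up, the factor HSF1 binds heat shock elements in promoters of cytosolic chaperone genes, and ATF6 with its partners binds ER stress elements in promoters of chaperone genes of the endoplasmic reticulum.

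Both elements could be seen in the promoter sequences of members, which are printed here because they show exact matches to each control sequence. Promoters were taken from RefSeq (GRCh38.p14) as 250 bases before to 50 bases after each start, and 67 of the 75 members had one. The heat shock element was searched as GAANNTTCNNGAA or TTCNNGAANNTTC, each of which reads as the other on the opposite strand. The ER stress element was searched as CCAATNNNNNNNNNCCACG and, for the other strand, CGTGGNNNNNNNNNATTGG. Capitals mark the match, each window runs 5′ to 3′ on the strand of the gene, and both motifs were searched over the whole promoter.
HSPA8: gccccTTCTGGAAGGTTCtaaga
HSPA6: aaaggTTCGCGAAAGTTCgcggc
HSP90AA1: ggttcTTCCGGAAGGTTCgggag
HSP90AB1: gattgTTCTGGAAGCTTCtggat
HSPD1: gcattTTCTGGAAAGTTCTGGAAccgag
HSP90B1: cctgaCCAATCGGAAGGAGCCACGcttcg
HSPA5: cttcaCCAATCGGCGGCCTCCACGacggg

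The HSPA8 window is chr11:123062174-123062196 on the minus strand, at positions -60 to -38 from the start. That of HSPA6 is chr1:161524461-161524483 on the plus strand, at -79 to -57. The HSP90AA1 window is chr14:102087115-102087137 on the minus strand, at -93 to -71. For HSP90AB1 it is chr6:44247826-44247848 on the plus strand, at -117 to -95. The HSPD1 window, which holds 2 overlapping matches, is chr2:197500063-197500090 on the minus strand, at -250 to -223. The HSP90B1 window is chr12:103930211-103930239 on the plus strand, at -199 to -171, and that of HSPA5 is chr9:125241386-125241414 on the minus strand, at -71 to -43. All coordinates are on GRCh38.p14, and the counts were made on hg19.

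A heat shock element was found in the promoters of 7 of 67 members (10.4%), against 85 of 15842 genes in all (0.537%). The other members with a match were DNAJB6 and DNAJA1. Matches are a description of letters in these windows and not of binding. All 7 genes had a mean of at least 50 counts. Their median log2 ratio was 0.27 and 6 of the 7 were positive, the exception being HSP90AB1 at -0.29. Of all 12530 protein-coding genes at this minimum, 6302 were positive. All of the 7 but HSPA6 averaged at least 1000 counts, and 29 of the 42 members at that level were positive, with a median of 0.13. DNAJB6, at 0.06, was at 0.008 with totals of NM_ transcripts and at -0.003 for its other listed transcript. The part of the element in these ratios was not tested. The median was -0.00 over the 50 members above the minimum whose promoter had no exact match. An element that departs from the searched letters was not counted, so these 50 cannot be taken as members without a heat shock element. ER stress elements were found in 2 of 67 members (2.99%), against 21 genes in all (0.133%). Both of these, HSP90B1 and HSPA5, were lower in LM2.

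The levels of the family were dominated by a few members, in nearly the same order in both lines. Without the readthrough genes, the RPKM of the other 72 members summed to 1676 in LM2 and 1515 in MDA-MB-231, a ratio of 1.11. The 10 leading members held 77.3% of this sum in LM2 and 77.2% in MDA-MB-231. Of the 72 members, 47 were above 1 RPKM in both columns. HSPA8, the constitutive HSC70 of the cytosol, alone held 30.7% in LM2 and 28.2% in MDA-MB-231. The plot of levels shows the 24 leading members.

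**Figure D1:**
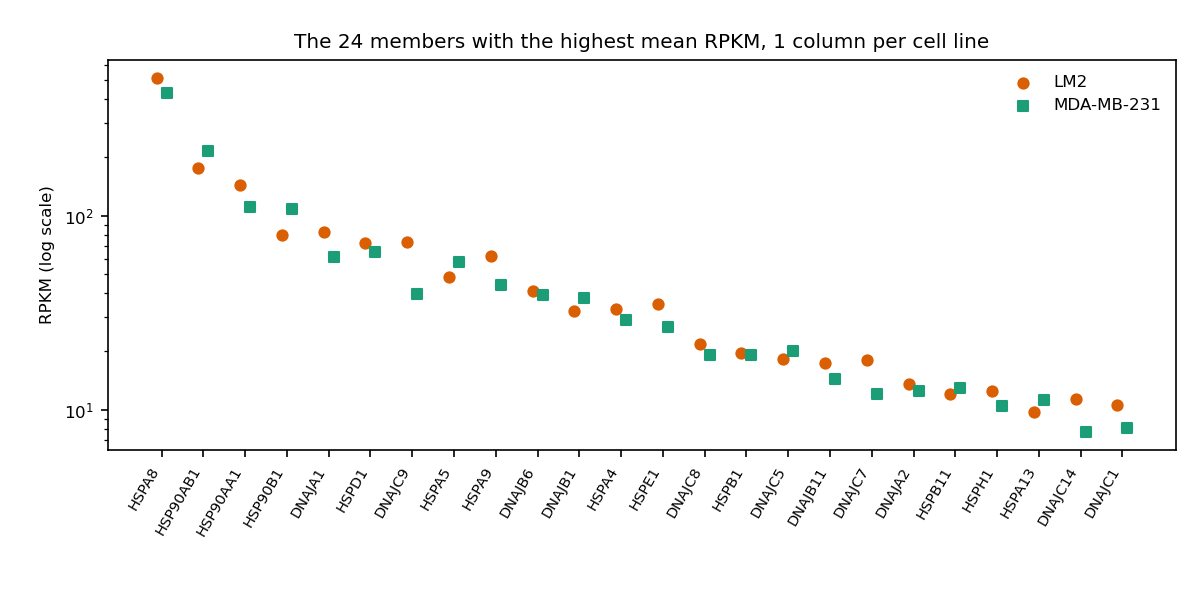
RPKM on a log axis of the 24 members with the highest mean RPKM, with LM2 as circles and MDA-MB-231 as squares, 1 value per cell line and no replicates. HSPA8 stands highest at 515 RPKM in LM2 and 427 in MDA-MB-231, and DNAJC9 has the widest gap between the columns, at 72.9 RPKM in LM2 and 39.6 in MDA-MB-231.

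Most members had nearly the same share of counts in both lines. Over 2-fold higher in LM2 were 3 of the 61 members (4.92%), HSPA2, HSPA6 and DNAJC22, beside 4.65% of all protein-coding genes at the same minimum. Over 2-fold lower was 1 member (1.64%), DNAJC27, beside 6.77% of all genes. The share higher was near that of all genes. The median log2 ratio was 0.06 over the members, with quartiles of -0.22 and 0.36, and 0.00 over all genes, with quartiles of -0.35 and 0.28. There were 49 members within 0.5 of 0 on the log2 scale and 12 beyond it (19.7%), beside 31.0% of all genes. A positive ratio was found for 35 members and a negative one for 26, beside 6302 and 6228 of all 12530 genes. At a mean of at least 1000 counts, none of 42 members was beyond 2-fold, beside 2.08% higher and 3.39% lower of 7648 genes. With HSP symbols, 23 passed the minimum, with 2 over 2-fold higher, none lower and a median of 0.17. With DNAJ symbols, 38 passed, with 1 higher, 1 lower and a median of 0.06.

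**Figure D2:**
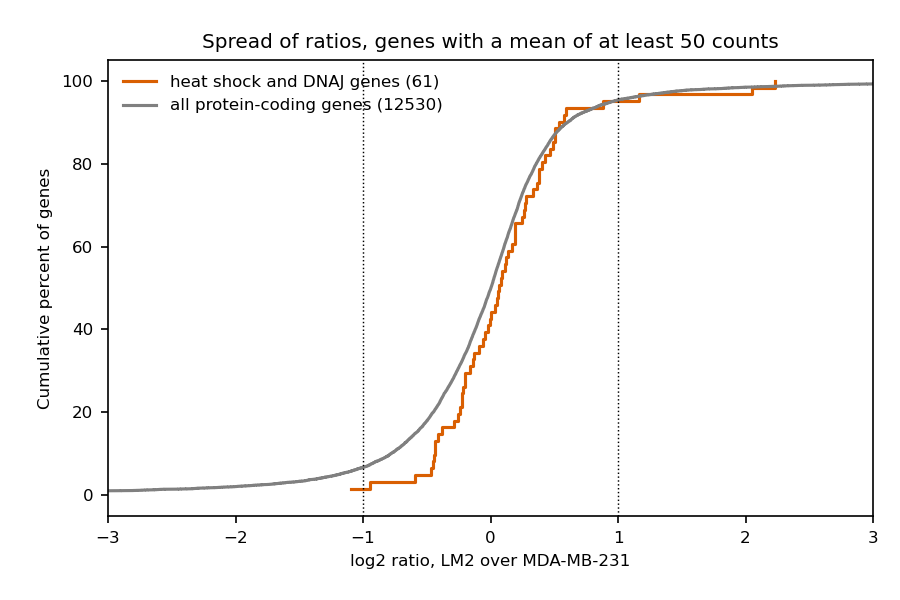
Cumulative percent of genes against the log2 ratio of LM2 over MDA-MB-231, for 61 heat shock and DNAJ genes and 12530 protein-coding genes that averaged at least 50 counts, with dotted lines at 2-fold. The member curve lies below the other on the left side, where 1.64% of members and 6.77% of all genes are over 2-fold lower.

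DNAJC22, a J protein with several membrane spans whose Drosophila counterpart Wurst acts in endocytosis, had 474 counts in LM2 and 102 in MDA-MB-231. It was 4.71-fold higher in LM2 (3.79 to 5.89), and its level was low in both columns, at 2.01 RPKM in LM2 and 0.427 RPKM in MDA-MB-231. HSPA2, an HSP70 known for its part in spermatogenesis in the mouse, had 456 counts in LM2 and 111 in MDA-MB-231, or 4.16-fold more (3.38 to 5.17), at 1.28 RPKM in LM2 and 0.307 RPKM in MDA-MB-231. With log2(RPKM + 1) the difference of HSPA2 was 0.80, and DNAJC22 (1.08) was the member still over 2-fold higher at the listed lengths. DNAJC22 was listed with 1827 bases, and its paired GENCODE transcript has 4412. At the GENCODE length it would have 0.833 RPKM in LM2 and 0.177 RPKM in MDA-MB-231. With those levels its difference on this scale would fall short of 2-fold. HSPA2 amounted to 0.00248 of the RPKM of HSPA8 in LM2 and to 0.000718 in MDA-MB-231. ZBTB1, the transcription factor gene beside HSPA2 on chromosome 14, also had more counts in LM2, with 4329 against 2263 in MDA-MB-231.

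HSPA6, a human HSP70 that is transcribed almost only under stress, had 98 counts in LM2 and 44 in MDA-MB-231. Its ratio was 2.26 (1.57 to 3.30), from 0.286 RPKM in LM2 and 0.127 RPKM in MDA-MB-231. The value is uncertain in another way, since 45.5% of the windows of 50 bases in HSPA6 also occur in its near copy HSPA7. HSPA7 itself was listed with 0 counts in LM2 and 6 in MDA-MB-231. On the scale of log2(RPKM + 0.1), which draws low genes toward 0, the difference was 0.77 and no longer over 2-fold.

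DNAJC27, a Rab-like GTPase with a J domain, had 203 counts in LM2 and 439 in MDA-MB-231 and was 2.13-fold lower in LM2 (1.80 to 2.53). Its level was 0.315 RPKM in LM2 and 0.673 RPKM in MDA-MB-231. With log2(RPKM + 0.1) the difference was -0.90, short of 2-fold. The antisense transcript DNAJC27-AS1 overlaps 3.57% of its exonic bases and had 14 counts in LM2 and 26 in MDA-MB-231. The strand setting of the counting (not given in the sources used here) bears on such pairs, and reads of overlapping genes cannot be told apart.

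Just inside 2-fold stood DNAJC6 and DNAJC9. DNAJC6 (auxilin), which with HSC70 strips the clathrin coat from vesicles, had 738 counts in LM2 and 1439 in MDA-MB-231, 1.92-fold fewer (1.76 to 2.11). DNAJC9, which recruits HSP70 to histones H3 and H4, had 13511 counts in LM2 and 7438 in MDA-MB-231, 1.84-fold more (1.79 to 1.89). Among members with at least 1000 counts on average, these 2 had the lowest and the highest log2 ratio, -0.94 for DNAJC6 and 0.88 for DNAJC9. Of the exonic bases of DNAJC9, 28.6% lie under exons of DNAJC9-AS1 and FAM149B1 on the other strand. DNAJC9-AS1 had 1251 counts in LM2 and 775 in MDA-MB-231, and FAM149B1 had 665 and 479.

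**Figure D3:**
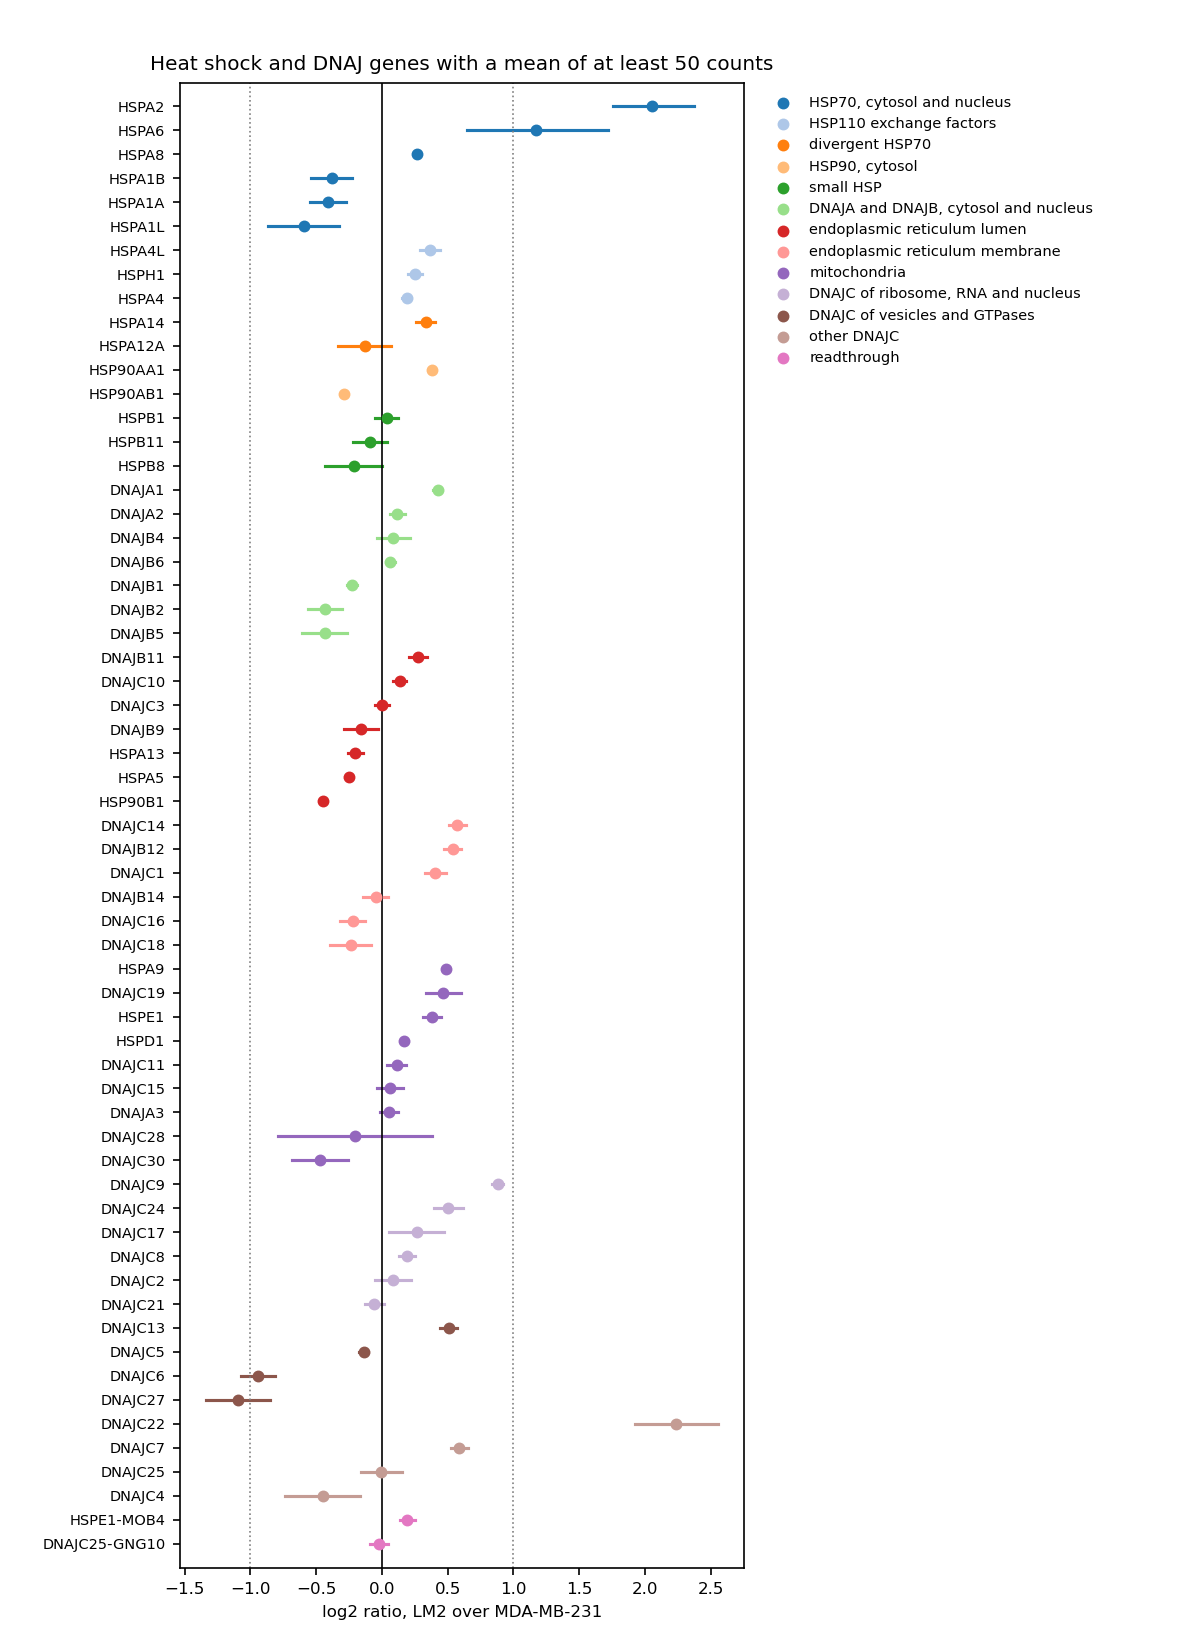
Log2 ratio of LM2 over MDA-MB-231 for the 61 members with a mean of at least 50 counts, grouped by role, with bars for the exact 95% interval of counting error and dotted lines at 2-fold. HSPA2, HSPA6 and DNAJC22 lie to the right of the dotted lines and DNAJC27 to the left, and 49 of the 61 members lie within 0.5 of 0.

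The HSP70 genes of the cytosol and nucleus were split. HSPA8 had 154058 counts in LM2 and 129462 in MDA-MB-231, a ratio of 1.21 (1.20 to 1.21). The stress-inducible pair HSPA1A and HSPA1B were lower in LM2. HSPA1A had 776 counts in LM2 and 1046 in MDA-MB-231, 1.33-fold fewer (1.21 to 1.46), and HSPA1B had 592 and 782, 1.30-fold fewer (1.17 to 1.45). HSPA1L, known from the testis, had 189 counts in LM2 and 289 in MDA-MB-231, 1.51-fold fewer (1.25 to 1.82). Of the 50-base windows of HSPA1A, 72.6% also occur in other genes, and 73.5% of those of HSPA1B, mainly in each other. The 2 genes therefore cannot be separated with certainty.

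The listed lengths of these 3 genes were long, for a reason not given in the sources used here. Length enters RPKM and cancels in a ratio of counts. Whether the counts themselves were affected was not tested. HSPA1A was listed with 12145 bases, 4.89 times the 2483 bases of its paired transcript in GENCODE release 29, HSPA1B with 12601 bases against 2521, and HSPA1L with 12685 against 2544. HSPA1A had 0.495 RPKM in LM2 and 0.659 RPKM in MDA-MB-231 as deposited, and would have 2.42 and 3.22 at the GENCODE length with the same counts. Over all 33024 paired RefSeq mRNAs the median of this length ratio was 1.001, and 671 of them were above 4 times, of which 278 lie on chromosome 6, as these 3 genes do. Summed RPKM of the group was 518 in LM2 and 429 in MDA-MB-231, nearly all of it from HSPA8.

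All 3 HSP110 exchange factors were higher in LM2, by small amounts. HSPA4 had 14520 counts in LM2 and 12902 in MDA-MB-231, a log2 ratio of 0.19. HSPA4L had 3207 and 2524 (0.36), and HSPH1, which heat shock induces, had 5909 and 5032 (0.25). Of the divergent HSP70 genes, HSPA14, a part of the ribosome-associated complex, had 3480 counts in LM2 and 2799 in MDA-MB-231, a log2 ratio of 0.33. These counts are of a transcript listed as non-coding. Of its listed mRNAs, the longer had 2954 counts in LM2 and 2359 in MDA-MB-231 (0.34), and the shorter had 2096 and 1392 (0.61). HSPA12A had 380 and 422, and its interval of 0.912-fold (0.792 to 1.05) held equality. HSPA12B, known from endothelium, stayed below the minimum with 46 counts in LM2 and 33 in MDA-MB-231.

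The HSP90 genes of the cytosol went in opposite directions. HSP90AA1, the inducible alpha form, had 72369 counts in LM2 and 56213 in MDA-MB-231, a ratio of 1.30 (1.29 to 1.32). HSP90AB1, the constitutive beta form, had 62134 counts in LM2 and 76748 in MDA-MB-231, 1.22-fold fewer (1.21 to 1.23). The RPKM of alpha was 0.814 times that of beta in LM2 and 0.512 times that in MDA-MB-231, a 1.59-fold difference. Their sum was nearly equal, at 322 RPKM in LM2 and 327 RPKM in MDA-MB-231. The proportions and the sum rest on the transcript used for alpha, listed with 3884 bases, at 144 RPKM in LM2 and 111 RPKM in MDA-MB-231. The other listed transcript of alpha, of 3363 bases, had nearly the same counts, at 167 RPKM in LM2 and 128 RPKM in MDA-MB-231. Of the 50-base windows of HSP90AA1, 17.5% occur in other genes, and 18.8% of those of HSP90AB1, led by the pseudogenes HSP90AA2P and HSP90AB3P.

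Of the 8 small heat shock proteins, 3 were above the minimum. HSPB1 (HSP27) led with 2280 counts in LM2 and 2255 in MDA-MB-231, a log2 ratio of 0.03 (or -0.02 with totals of RefSeq mRNAs only). HSPB11, a subunit of intraflagellar transport in cilia, had 938 counts in LM2 and 1012 in MDA-MB-231. HSPB8 (HSP22), the partner of BAG3, had 322 and 379. The interval of each of these 3 ratios held equality. HSPB6 had 48 counts in LM2 and 49 in MDA-MB-231, HSPB9 had 6 and 3, and HSPB2 had 0 and 2. HSPB3 and HSPB7, known from muscle, were at 0 in both columns, where a count of 0 allows up to 3 counts.

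Among the DNAJA and DNAJB proteins of the cytosol and nucleus, 7 of 11 passed the minimum and none was beyond 0.5 on the log2 scale. DNAJA1, the most abundant, had 16343 counts in LM2 and 12345 in MDA-MB-231, a ratio of 1.34 (1.31 to 1.37). DNAJB6, which keeps aggregation-prone proteins soluble, had 13060 and 12657 (log2 ratio 0.06), and 19.1% of its 50-base windows occur in other genes. DNAJB1, the stress-inducible HSP40, had 9293 counts in LM2 and 11020 in MDA-MB-231, 1.17-fold fewer (1.14 to 1.20). DNAJB2 (-0.43) and DNAJB5 (-0.44) had the lowest log2 ratios of these 7. Below the minimum were DNAJA4, with 13 counts in LM2 and 26 in MDA-MB-231, DNAJB7, with 46 and 42, DNAJB13, with 5 and 3, and DNAJB8, at 0 in both.

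Members in the lumen of the endoplasmic reticulum took a smaller share of the family in LM2, 10.3% of its RPKM, against 13.8% in MDA-MB-231. Their RPKM summed to 173 in LM2 and 210 in MDA-MB-231. HSP90B1 (GRP94) had 29364 counts in LM2 and 40638 in MDA-MB-231, 1.37-fold fewer (1.35 to 1.39), and HSPA5 (BiP), the main HSP70 of this compartment, had 24864 and 30046, 1.19-fold fewer (1.17 to 1.21). HSPA13 was lower as well, with 4994 counts in LM2 and 5823 in MDA-MB-231. The 4 J proteins of the lumen differed in direction. DNAJB11 (ERdj3) had 3787 counts in LM2 and 3172 in MDA-MB-231 (0.27), DNAJC10 (ERdj5), which reduces disulfides, had 6552 and 6042 (0.14), DNAJC3 had 5434 and 5498 (0.00) and DNAJB9 had 957 and 1083 (-0.16). The median log2 ratio of the 7 genes was -0.16, with 3 positive and 4 negative.

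The 6 J proteins of the membrane of the endoplasmic reticulum had a median of 0.18, and DNAJC14, DNAJB12 and DNAJC1 were above 0. DNAJC14 had 4897 counts in LM2 and 3332 in MDA-MB-231, 1.49-fold more (1.42 to 1.56). Of its exonic bases 34.9% lie under genes of the other strand, among them ORMDL2, which had 1738 counts in LM2 and 1206 in MDA-MB-231. DNAJB12, which helps to clear misfolded membrane proteins, had 4713 and 3284, or 1.45-fold more (1.39 to 1.52). The other 3 had negative log2 ratios, -0.24 for DNAJC18, -0.22 for DNAJC16 and -0.05 for DNAJB14.

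Of the mitochondrial members, 7 of 9 had a positive ratio, beside 6302 of all 12530 protein-coding genes, with a median log2 ratio of 0.11 and none beyond 0.5. Among the 7, the intervals of DNAJA3 (0.989 to 1.09) and DNAJC15 (0.973 to 1.11) held equality. So did that of DNAJC28 (0.578 to 1.30), which had a negative ratio. HSPA9 (mortalin), the HSP70 of the matrix, had 28001 counts in LM2 and 20245 in MDA-MB-231, a ratio of 1.40 (1.38 to 1.43). HSPD1 (HSP60) had 21623 and 19457, a ratio of 1.13 (1.10 to 1.15). HSPE1 (HSP10), which is read from the same control region as HSPD1 in the other direction, had 4293 and 3342, a ratio of 1.30 (1.24 to 1.36). The exons of the pair overlap by 14.2% of those of HSPE1, and 24.8% of the 50-base windows of HSPD1 and 27.2% of those of HSPE1 occur in other genes. The RPKM of HSPE1 was 0.479 times that of HSPD1 in LM2 and 0.415 times that in MDA-MB-231. DNAJC19, which serves protein import at the inner membrane, had 1083 counts in LM2 and 795 in MDA-MB-231 (0.46), and DNAJC30, known for the turnover of complex I, had 305 and 428 (-0.47). The main HSP70 genes of the matrix and of the lumen of the endoplasmic reticulum had opposite directions. The RPKM of HSPA9 was 1.28 times that of HSPA5 in LM2 and 0.763 times that in MDA-MB-231 at the listed lengths. The order of the pair rests on those lengths, since HSPA9 was listed with 3506 bases and its paired GENCODE transcript has 4727. At GENCODE lengths HSPA9 had 45.9 RPKM and HSPA5 49.3 RPKM in LM2, against 32.8 and 58.8 RPKM in MDA-MB-231, and HSPA5 led in both columns.

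The DNAJC proteins of the ribosome, RNA processing and the nucleus summed to 109 RPKM in LM2 and 71.1 RPKM in MDA-MB-231, a ratio of 1.53 at the listed lengths. DNAJC9 held 72.9 RPKM of this sum in LM2 and 39.6 RPKM in MDA-MB-231, but it was listed with 1437 bases where its paired GENCODE transcript has 3032, a length at which it would have 34.5 RPKM in LM2 and 18.8 RPKM in MDA-MB-231. Of these 6 genes, 5 had a positive ratio, beside 6302 of all 12530 protein-coding genes, with a median of 0.23. The intervals of DNAJC2 (0.966 to 1.16), among the 5, and of DNAJC21 (0.912 to 1.01), with a negative ratio, held equality. DNAJC24 (DPH4), needed for diphthamide, had 1540 counts in LM2 and 1099 in MDA-MB-231, and DNAJC8 of the spliceosome had 4968 and 4412. Among the DNAJC proteins of vesicles, DNAJC13 (RME-8) of endosomes had 4554 counts in LM2 and 3243 in MDA-MB-231 (0.51), while DNAJC5, the cysteine string protein of secretory vesicles, had 12485 and 13914 (-0.14). The direction of DNAJC13 was thus opposite to that of DNAJC6 and DNAJC27. DNAJC5B had 2 counts in either column and DNAJC5G had 0. Of the remaining DNAJC genes, DNAJC7, a partner of HSP70 and HSP90, had 4856 and 3270, or 1.51-fold more (1.44 to 1.57), the third-highest log2 ratio (0.59) among DNAJ members above the minimum. DNAJC12, a partner of aromatic amino acid hydroxylases, had 6 counts in LM2 and 0 in MDA-MB-231. The readthrough genes DNAJC25-GNG10 and HSPE1-MOB4 share 93.4% and 94.5% of their 50-base windows with other genes, mainly those they join, so their counts are not values of members alone. HSPB2-C11orf52, which RefSeq lists as non-coding, had 16 counts in LM2 and 14 in MDA-MB-231.

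Members whose neighbours lay far from 0 mostly had a ratio of the same sign. For each member the median log2 ratio was taken over up to 15 protein-coding genes on either side, members left out. The 4 members on chromosome 6 that passed the minimum all had negative ratios. The neighbours of HSPA1A, HSPA1B and HSPA1L had a median of -0.73 and those of HSP90AB1 a median of -0.53, both lower than the members themselves. Neighbours of DNAJC14 had a median of 0.52, those of DNAJC9 0.47, those of DNAJC22 0.43 and those of HSPA9 0.36. A cut at 0.25 was chosen after the values were seen. Of 10 members with a neighbour median above 0.25, 9 had a positive ratio (DNAJB14 was the exception), and of 9 members with one below -0.25, 8 had a negative ratio (all but HSPB1). HSPA1A, HSPA1B and HSPA1L are among these 8 and share the same neighbours, so they are not separate cases. DNAJB12 and DNAJC9, among the 9, lie near each other on chromosome 10 and may share neighbours. The intervals of DNAJB4 (0.974 to 1.16) and DNAJC28 (0.578 to 1.30), counted as same in sign, held equality. So did those of the exceptions DNAJB14 (0.907 to 1.03) and HSPB1 (0.966 to 1.09). The other 42 members lay between the cuts. These counts compare signs and not sizes, and the share over all genes was not taken. Neighbours of HSPA2 (0.12), HSPA6 (0.07), DNAJC6 (-0.01) and DNAJC7 (-0.02) were near 0. The part of the neighbourhood in the ratios was not tested.

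**Figure D4:**
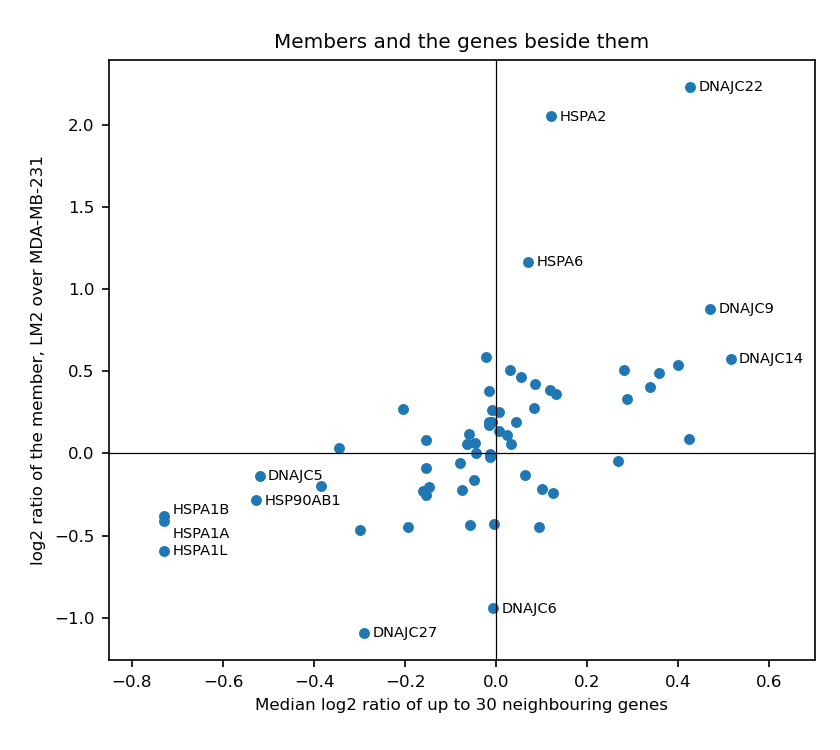
Log2 ratio of each of 61 members (vertical) against the median log2 ratio of up to 30 neighbouring protein-coding genes (horizontal), LM2 over MDA-MB-231 on both axes. The 3 HSPA1 genes and HSP90AB1 of chromosome 6 lie at the lower left, DNAJC9, DNAJC14 and DNAJC22 at the upper right, and HSPA2, HSPA6 and DNAJC6 close to the vertical line.

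The partners of the chaperones were read through 8 lists by known role, which share some genes. Of all 12530 protein-coding genes at the same minimum, 4.65% were over 2-fold higher, 6.77% over 2-fold lower and 6302 positive. The HSF genes differed little. HSF1, the main activator of the heat shock response, had 2340 counts in LM2 and 2643 in MDA-MB-231 (-0.16), HSF2 had 1114 and 1150 (-0.03), and HSF4 had 215 and 250. Of this list, 5 of 6 passed, with 1 over 2-fold lower and a median of -0.16. That gene, HSBP1L1, a relative of the HSF1-binding protein HSBP1, had 197 counts in LM2 and 533 in MDA-MB-231, 2.67-fold fewer (2.26 to 3.16), among neighbours with a median of -0.65. Among HSF1 targets outside the family, 14 of 15 passed, 11 of them positive, with a median of 0.39, none over 2-fold higher and 1 over 2-fold lower. CHORDC1, an HSP90 partner, had 3827 counts in LM2 and 2275 in MDA-MB-231 (0.77). ZFAND2A, a stress-induced proteasome partner, went the other way with 324 counts in LM2 and 742 in MDA-MB-231, 2.26-fold fewer (1.98 to 2.58). CRYAB, a small heat shock protein under another symbol, was at 0 in both columns.

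HSP90 co-chaperones had a median log2 ratio of 0.24, with 18 of 23 positive, 1 over 2-fold higher and 1 lower. Each is 4.35% of the 23, beside 4.65% higher and 6.77% lower of all genes. UNC45A, which folds myosin with HSP90, had 6088 counts in LM2 and 3012 in MDA-MB-231, 2.05-fold more (1.96 to 2.14), and its neighbours had a median of 0.97. FKBP5, a glucocorticoid-induced partner of HSP90, had 1466 counts in LM2 and 3079 in MDA-MB-231, 2.07-fold fewer (1.95 to 2.21), with neighbours at -0.77. Exchange factors of HSP70 had a median of 0.09 over 11 genes, and 1 was over 2-fold lower. That was BAG6, with 1004 counts in LM2 and 2085 in MDA-MB-231, which lies on chromosome 6 among neighbours at -0.81 and was listed with 26073 bases. Of the chaperonin TRiC and prefoldin, 13 of 15 passed, none beyond 2-fold, with a median of 0.25. The largest ratios there were those of PFDN5 (0.71) and CCT2 (0.69).

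Folding and stress genes of the endoplasmic reticulum had a median of -0.11, with 16 of 26 negative, 1 over 2-fold higher and none lower. The lectin chaperone CALR had 38501 counts in LM2 and 61158 in MDA-MB-231 (-0.65), and the disulfide isomerases PDIA6 (-0.62) and PDIA4 (-0.59) were also lower. Of the 26 genes 10 were positive, among them ERP29 (0.48), HERPUD1 (0.42) and CANX (0.23). The sensor kinase EIF2AK3 (PERK) had 934 and 1820 (-0.94). DDIT3 (CHOP), a stress-induced factor downstream of it, was higher in LM2, with 3610 counts against 1595 in MDA-MB-231, 2.29-fold more (2.16 to 2.43), with neighbours at 0.65. Mitochondrial chaperones and proteases had a median of 0.11 over 11 genes, none beyond 2-fold, and the protease LONP1 had the highest ratio (0.77) and AFG3L2 the lowest (-0.51). Relatives of members under other symbols had a median of 0.13 over 6 of 9 genes, none beyond 2-fold, led by HSCB (0.67), the J protein of iron-sulfur cluster assembly.

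**Figure D5:**
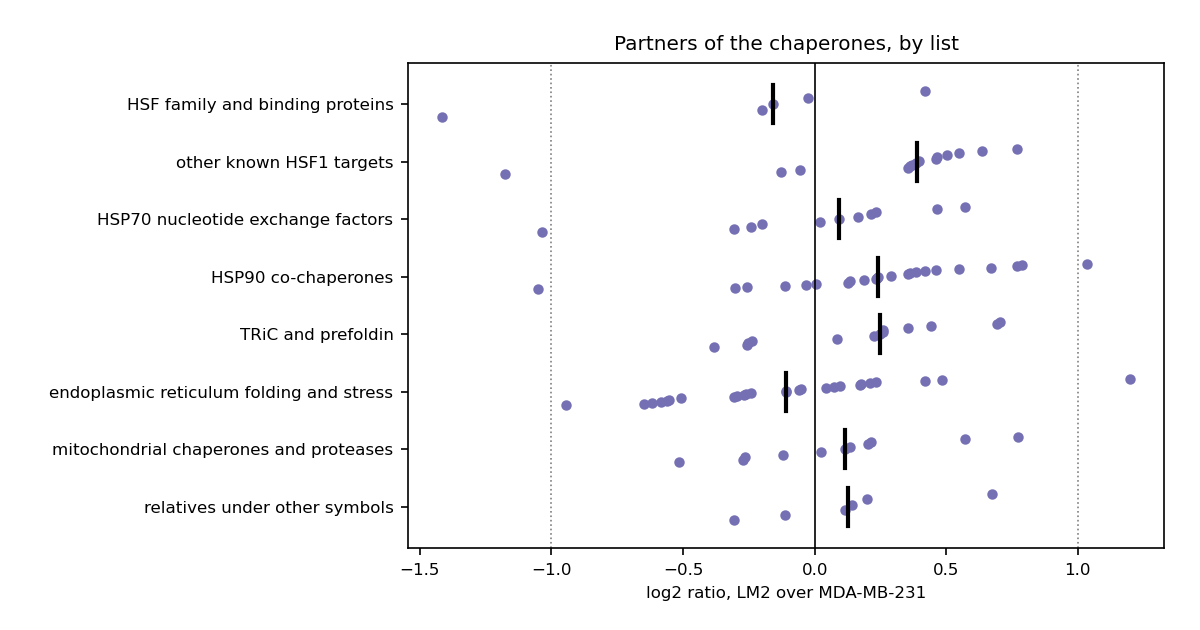
Log2 ratio of LM2 over MDA-MB-231 for each gene with a mean of at least 50 counts in 8 lists of chaperone partners, 1 point per gene, with thick bars for the list median and dotted lines at 2-fold. The medians lie between -0.16 (HSF family) and 0.39 (other HSF1 targets), and few points lie beyond the dotted lines.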

How the data were processed

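RNA of LM2 and MDA-MB-231 cells was compared. Per the submitters' processing notes, bcl2fastq and TopHat2 (version 2.0.13) were run, with hg19 as the build. The counter, the annotation and the read length were not given in the sources used here. Read counts for each transcript, as the authors deposited them, were used unchanged. The authors deposited RPKM values too, which equal count over length and column total within a relative 4.98e-06.

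Symbols were paired with 33714 NM_, 6795 NR_ and 21822 ENST transcripts through RefSeq (GRCh38.p14) and GENCODE release 29, and no hg19 coordinate was converted. With 1 column per cell line, edgeR's quasi-likelihood test could not be run, and ratios with exact binomial intervals took its place. The calculation was tested on simulated data. The members and lists were chosen with earlier results of these data known, and the role groups were set after the values were seen. Named were members over 2-fold, the 10 with the highest RPKM, every HSP gene, the 3 largest DNAJ ratios in each direction, members at 0, and list genes over 2-fold or else the 2 largest ratios. Other genes, chosen after their values were seen, fill the role groups and the lists.

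Alternatives were TMM and upper-quartile factors (edgeR 4.0.16), size factors (DESeq2 1.42.0), totals of NM_ transcripts, other transcript choices, minimums of 10 and 200 counts or none, log2(RPKM + 0.1), log2(RPKM + 1) and 1.5-fold. Leaving out the 3 readthrough genes was chosen after seeing the data. Python 3.11.15, numpy 2.4.6, scipy 1.17.1, pandas 2.3.3, matplotlib 3.10.9 and R 4.3.3 were used.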

Additional observations from a re-analysis of the deposited data

How the results depend on the processing

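The count of 3 members over 2-fold higher became 5 at 1.5-fold and 4 with no filter on low counts. It became 2 with a minimum of 200 counts. At the listed lengths it became 2 with log2(RPKM + 0.1) and 1 with log2(RPKM + 1). On those RPKM scales low genes lie closer to 0 by construction. The count of 1 over 2-fold lower became 3 at 1.5-fold, 2 with no filter on low counts, and 0 with log2(RPKM + 0.1) and with log2(RPKM + 1). The median log2 ratio of the members lay between 0.01 (totals of NM_ transcripts) and 0.08 (TMM) in the alternatives, with 1.5-fold left out since it moves no ratio. Over 34 members with counts taken by the naming rule, the scaling moved every log2 ratio by at most 0.06. Among these 34, the sign changed for HSPB1 alone above the minimum (-0.02 with totals of NM_ transcripts) and for HSPB6 below it (0.00 with TMM). Signs of other members were not checked, and some, such as DNAJC3 (0.00), lay within that shift. Of the 34 ratios, 13 lay outside their counting interval with totals of NM_ transcripts, 9 with log2(RPKM + 1), all of these closer to 0, and 1 with TMM. No paired analysis was possible because the deposited table has 1 column per cell line, and leaving out each replicate was not run for the same reason. Counting error alone is covered by the intervals, and the spread between cultures is unknown.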
